A study of Homo sapiens with 2 samples.

Results

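The genes described here carry the signal of the thrombopoietin receptor into the nucleus: the kinases JAK2 and TYK2, the transcription factors STAT3, STAT5A and STAT5B, and 4 genes that STAT5 is known to switch on, CISH, SOCS2, PIM1 and PIM2. Every probe set that the array's annotation assigned to one of these genes alone was taken, which gave 22 probe sets for 9 genes, of 54613 probe sets and 19775 genes in all. The series holds 2 samples labelled as HL60, an established human promyelocytic leukaemia line. Of these, 1 culture was given eltrombopag, an oral drug that activates the thrombopoietin receptor, at 3 µg/ml for 36 h, and 1 was untreated. Both were grown in RPMI with 10% serum. No vehicle or culture time is recorded here for the untreated sample, so the drug and a difference in either cannot be told apart. With 1 sample per group there is no replicate check, no test and no p-value, and every ratio below is a difference between 2 arrays. The thrombopoietin receptor gene itself was not analysed here, so the question of whether these cells expressed the drug's receptor has no direct measurement.

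The receptor has no kinase of its own. When its ligand or an agonist brings it into its active form, JAK2 bound to its cytoplasmic tail phosphorylates the tail, STAT5A and STAT5B dock there, are phosphorylated in turn and move to the nucleus as dimers. STAT5 dimers bind DNA at a palindrome spelt TTCNNNGAA, and among the genes they activate are CISH and SOCS2, which feed back on cytokine receptors and damp the signal, and the PIM kinases, which favour survival. Activation of the JAK and STAT proteins occurs by phosphorylation, which an expression array does not measure. Transcript levels of the feedback genes are the closest readout of the pathway in these data. They were read at 36 h only, so any earlier rise and fall was not measured.

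The stretches of DNA before CISH and PIM2 are shown because CISH is commonly used to read STAT5 activity and PIM2 had the lowest ratio of the 9 genes at the floor used here, which bounds that of PIM1. RefSeq promoter windows (GRCh38.p14) were matched by symbol for 8 of the 9 genes, all but SOCS2, and gave 13 windows, since JAK2 and STAT5A have several annotated starts. Each was searched over the 250 bases before the start for TTCNNNGAA, which reads the same on both strands, and capitals mark each match. The CISH stretch is chr3:50611775-50612024 on the minus strand and the PIM2 stretch is chrX:48919025-48919274 on the minus strand.
CISH: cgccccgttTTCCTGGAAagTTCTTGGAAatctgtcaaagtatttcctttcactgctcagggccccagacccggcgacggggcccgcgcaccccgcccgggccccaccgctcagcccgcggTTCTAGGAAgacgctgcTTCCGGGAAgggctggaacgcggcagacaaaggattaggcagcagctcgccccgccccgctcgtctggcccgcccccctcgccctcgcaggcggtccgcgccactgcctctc
PIM2: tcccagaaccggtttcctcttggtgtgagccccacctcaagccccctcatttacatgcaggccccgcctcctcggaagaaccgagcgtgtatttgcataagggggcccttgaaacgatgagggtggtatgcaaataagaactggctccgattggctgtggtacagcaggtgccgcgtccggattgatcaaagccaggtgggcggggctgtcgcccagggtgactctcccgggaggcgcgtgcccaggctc
The CISH stretch held 4 matches, TTCCTGGAA, TTCTTGGAA, TTCTAGGAA and TTCCGGGAA, which begin 241, 230, 129 and 112 bases before the start and do not overlap. At least 1 match was found in 6.57% of 35116 promoter stretches of the same length, and at least 4 matches in 5 stretches. The other 12 windows, those of JAK2, TYK2, STAT3, STAT5A, STAT5B, PIM1 and PIM2, held none of these letters in this arrangement. A match is a description of the sequence, not a binding site shown in these cells.

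Values are MAS5 signals, a brightness per probe set on a linear scale, and ratios are eltrombopag over untreated. A signal below the floor of 56.9, the 60th percentile of both arrays pooled, was raised to it before a ratio was taken. A probe set or gene is called measured when at least 1 sample reached the floor. Of the 22 probe sets, 18 were measured, 15 of them with both samples at or above the floor. The 9 genes each had a measured probe set. A gene with several probe sets is represented by its brightest, judged by mean log2 signal. The whole distribution was shifted: the median log2 ratio of the 10314 measured genes was -0.12. The 2 brightest probe sets of a gene disagreed by a median of 0.21 in log2 ratio over 4374 genes, and by a median of 0.26 where the dimmer one had a signal below 128. That disagreement is the only spread that could be computed within these arrays, and it is not an error between cultures.

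**Figure D1:**
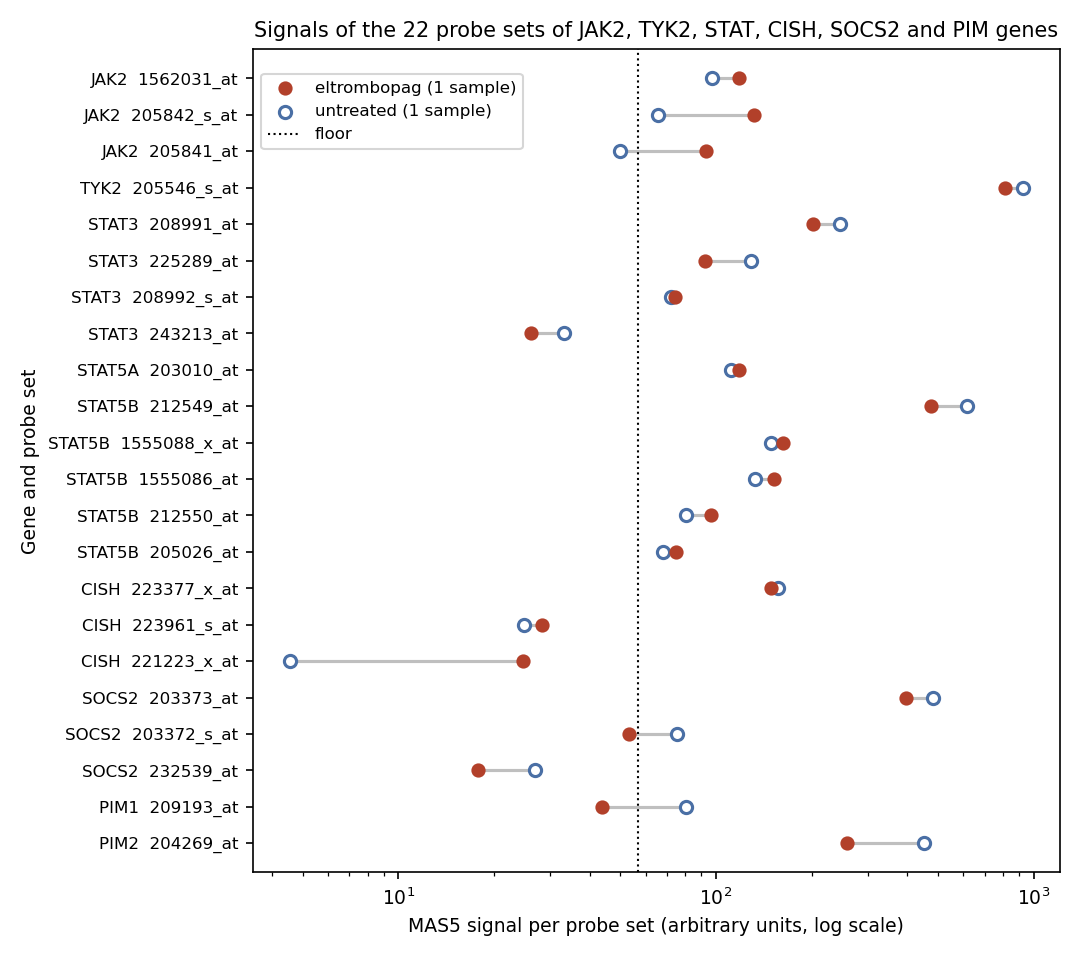
Signal of each of the 22 probe sets on a log axis, with a filled point for the eltrombopag sample, an open point for the untreated sample and a dotted line at the floor of 56.9. All 3 JAK2 probe sets lie further right with eltrombopag, while PIM1, PIM2 and both measured SOCS2 probe sets lie further left.

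In representative probe sets, 0 of the 9 genes passed 2-fold upwards and 0 passed it downwards. Upward differences of this size made up 0.65% of all measured genes and downward ones 2.27%, so a count of 0 in 9 genes is near the background. The log2 ratios ran from -0.81 for PIM2 to 0.28 for JAK2, with a median of -0.28. JAK2 and STAT5A had ratios above 0, and the other 7 genes had ratios below 0. Of all measured genes, 36.6% had ratios above 0 and 63.4% below. Set against the median of all genes, JAK2, STAT5A and CISH lay above it and 6 genes below. After median centring, quantile normalization or lowess, 3 of the 9 had ratios above 0 and 6 below, because CISH changed sign. Under the same scalings, upward 2-fold differences made up 0.94% to 1.05% of all genes and downward ones 1.29% to 1.49%.

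**Figure D2:**
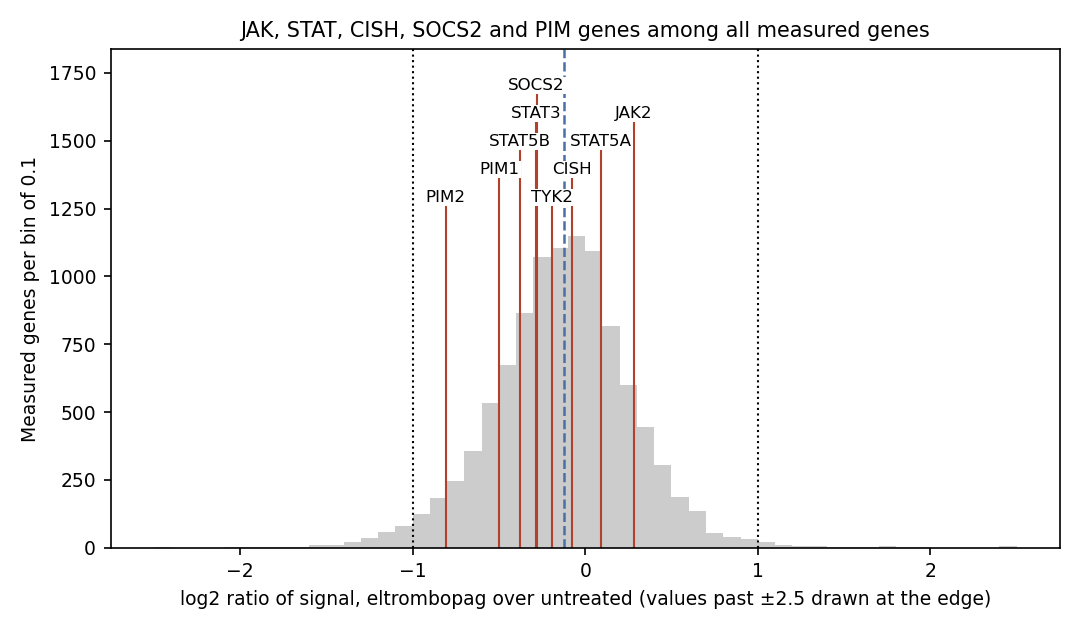
Histogram of the log2 ratio of eltrombopag over untreated for 10314 measured genes, with a red line at each of the 9 genes, a dashed line at the median of -0.12 and dotted lines at 2-fold. All 9 lines fall between the 2-fold limits, PIM2 on the left at -0.81 and JAK2 on the right at 0.28.

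JAK2, the kinase that the thrombopoietin, erythropoietin and growth hormone receptors share, was higher in the eltrombopag sample in 3 of 3 probe sets, but by unequal amounts. The probe set 205842_s_at read 131.8 with eltrombopag and 65.8 untreated, a 2.003-fold difference. The probe set 205841_at read 93.2 with eltrombopag and 49.9 untreated, which was under the floor, so it was at least 1.64-fold higher. The third, 1562031_at, which represents the gene, read 118.3 with eltrombopag and 97.3 untreated, a log2 ratio of 0.28. All 3 were dim, with no signal above 131.8 in either sample. The first of them was the 1 probe set of 18 to reach 2-fold, a change that 0.722% of all measured probe sets reached upwards and 2.15% downwards. Under the other 3 scalings its fold lay between 2.15 and 2.20, and that of 205841_at between 1.67 and 1.73, while 1562031_at lay between 1.31 and 1.35. The size of the JAK2 difference therefore depends on the probe set, and the mean log2 ratio over the 3 was 0.67.

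TYK2, the related kinase of interferon, interleukin-10 and interleukin-12 receptors, read 809.7 with eltrombopag and 925.6 untreated in its 1 probe set, a log2 ratio of -0.19. This lay 0.07 below the median of all genes. The TYK2 probe set carries the suffix _s_at, which marks probes shared between transcripts. JAK1, a kinase that pairs with others on cytokine receptors, had a log2 ratio of -0.08 in its brightest probe set. JAK3, the kinase bound to the common gamma chain of interleukin receptors, had one of 0.03.

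The STAT genes showed no common direction. STAT5B, STAT5A and STAT3 are neighbouring protein-coding genes on chromosome 17 in the RefSeq table. STAT5A, the transcription factor first found in mammary gland, read 118.5 with eltrombopag and 111.1 untreated in its 1 probe set, a log2 ratio of 0.09. STAT5B, its close relative and the main mediator of growth hormone in liver, had 5 measured probe sets that disagreed. The brightest, 212549_at, read 474.0 with eltrombopag and 616.0 untreated, a log2 ratio of -0.38. The other 4 had log2 ratios between 0.13 and 0.26, and the highest of these, 212550_at, read 96.5 with eltrombopag and 80.5 untreated. The 2 STAT5B probe sets drawn from the same transcript record, 1555086_at and 1555088_x_at, gave 0.19 and 0.13. The mean over the 5 was 0.07, so STAT5B has no settled direction.

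STAT3, the factor downstream of interleukin-6 and G-CSF, had 3 measured probe sets of 4. The brightest, 208991_at, read 201.7 with eltrombopag and 245.3 untreated, a log2 ratio of -0.28. The probe set 225289_at read 92.5 with eltrombopag and 128.9 untreated, a ratio of -0.48, and 208992_s_at read 74.1 with eltrombopag and 72.4 untreated, a ratio of 0.03. Of the 4 genes with more than 1 measured probe set, STAT3 and STAT5B had ratios of both signs, JAK2 and SOCS2 of one sign. Across the 4374 genes with 2 or more probe sets that reached the floor on both arrays, 38.6% had both signs. That rule is stricter than the one for the 4 genes, where SOCS2 counted with a probe set under the floor with eltrombopag. STAT6, which serves interleukin-4, was the STAT gene with the largest ratio among those measured, at 610.6 with eltrombopag and 401.7 untreated, a log2 ratio of 0.60.

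None of the 4 feedback and target genes was higher with eltrombopag on the deposited scale. All had log2 ratios below 0, from -0.81 to -0.08, as did their 5 measured probe sets. Of all measured genes, 63.4% also had ratios below 0, and the median was -0.12. CISH turned to slightly above 0 under the 3 other scalings. CISH, the SH2-domain inhibitor with 4 matches before its start, read 148.4 with eltrombopag and 156.6 untreated in 223377_x_at, a log2 ratio of -0.08. Relative to the median of all genes CISH lay 0.04 higher. The other CISH probe sets were below the floor in both samples. Of these, 223961_s_at read 28.3 with eltrombopag and 24.8 untreated, and 221223_x_at read 24.6 with eltrombopag and 4.55 untreated. Both read higher with eltrombopag, but no fold is given for either, because both samples were under the floor and no detection calls were used. The CISH ratio therefore rests on 223377_x_at alone. That probe set was dropped, by its suffix, in an alternative described below, and CISH then had no measured value. Whether the signal of 223377_x_at came from CISH transcripts alone was not tested.

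SOCS2, which restrains growth hormone signalling, had lower signals with eltrombopag in both of its measured probe sets. The brightest, 203373_at, read 395.1 with eltrombopag and 480.2 untreated, a log2 ratio of -0.28. The next, 203372_s_at, read 53.2 with eltrombopag, under the floor, and 75.6 untreated, so it was at least 1.33-fold lower. The dimmest, 232539_at, read 17.8 with eltrombopag and 26.9 untreated, both under the floor. SOCS2 and CISH thus differed from untreated by no more than a log2 ratio of 0.28 in their brightest probe sets, against the median disagreement of 0.21 between probe sets of 1 gene.

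PIM1 and PIM2 encode serine/threonine kinases that need no activating phosphorylation, so their activity follows their transcript and protein levels. PIM2 read 257.6 with eltrombopag and 451.3 untreated in its 1 probe set, a log2 ratio of -0.81 or 1.75-fold lower. Of all measured genes, 5.15% had a lower ratio than PIM2. At a threshold of 1.5-fold PIM2 was the 1 gene of the 9 to pass, on the lower side, where 11.8% of all measured genes lay, against 3.49% on the higher side. Under the other scalings PIM2 was between 1.60-fold and 1.63-fold lower. PIM1 read 43.7 with eltrombopag, under the floor, and 80.3 untreated, so it was at least 1.41-fold lower, and 1.84-fold lower if the value under the floor is taken as it stands. PIM3, the third kinase of the family, read 2068 with eltrombopag and 1853 untreated, a log2 ratio of 0.16.

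PIM2 is abundant in plasma cells, and most measured plasma cell markers also had ratios below 0. Of 16 plasma cell genes on the array, 13 were measured. Of these, 12 had ratios below 0, beside 63.4% of all measured genes, and 6 were at least 2-fold lower, beside 2.27%. The 6 were IRF4, TNFRSF17, SLAMF7, FKBP11, POU2AF1 and SDC1, with log2 ratios from -2.37 to -1.27. SLAMF7 gave -2.01 in its representative probe set but -0.39 in 219159_s_at. Its dimmest, under the floor with eltrombopag, gave -2.18. FKBP11 gave -1.86 and -2.17 but -0.69 in its dimmest probe set. DERL3 was the 1 measured gene of the list above 0, at 0.63, but -0.53 in another measured probe set. XBP1, among the brightest, read 3268 with eltrombopag and 3441 untreated, a ratio of -0.07. MZB1 gave -0.28 in its representative probe set and 0.09 in the other. The median of the 13 log2 ratios was -0.93, and the summed signal of all 16 with eltrombopag was 59.2% of that in the untreated sample, 11735 against 19826. JCHAIN, the joining chain of secreted antibodies, read 4866 with eltrombopag and 7972 untreated. CD27, CD79A and CD79B were below the floor in both samples. Whether PIM2 belongs to that group of transcripts was not tested, and in a bulk sample fewer cells of a type and less RNA per cell cannot be told apart. Of 11 promyelocyte genes, 8 were measured, 6 of them with ratios below 0, beside 63.4% of all measured genes. Their median was -0.21, beside -0.12 for all measured genes. CTSG, cathepsin G, and RNASE2, an eosinophil ribonuclease, had the lowest log2 ratios of these 8, -0.84 and -0.76. MS4A3, PRTN3 and CEBPE had ratios of -0.22, -0.21 and -0.21, and AZU1 had one of 0.26. SRGN, the brightest of the list, read 7685 with eltrombopag and 7160 untreated, a ratio of 0.10, but -0.88 and 0.38 in dimmer probe sets. MPO, the granule enzyme myeloperoxidase, read 1467 with eltrombopag and 1556 untreated in its brighter probe set and 1587 against 1326 in the other, so its direction is not settled. ELANE and LYZ, other granule enzymes, and KIT, a progenitor receptor, were below the floor in both samples. The labels name the line as HL60 and the cell type as a haematopoietic stem cell. In the untreated sample the plasma cell genes summed to 19826 and the 11 promyelocyte genes to 11927. TNFRSF17, a plasma cell gene, read 1314 there. Plasma cell transcripts were thus bright in a sample named for a promyelocytic line, and their source was not tested. Of the T and NK cell, erythroid and monocyte lists, 1 gene each was measured.

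The other genes of the pathway were described from fixed lists, and of the receptors, ligands, kinases, inhibitors, targets and adaptors together 75 were measured. FOS was the 1 gene at least 2-fold higher, and 4 were at least 2-fold lower: IL6R, CSF3R, CDKN1A and CCND3. Beside these counts of 1 and 4 in 75 stand the shares of 0.65% and 2.27% over all measured genes. Of the receptor list, 27 genes had a probe set and 13 were measured. Of these 13, 11 had ratios below 0, beside 63.4% of all measured genes. Set against the median of all genes, 5 of the 13 lay above it and 8 at or below. Their median was -0.31, beside -0.12 for all measured genes. Receptors for blood growth factors were among those on the lower side. CSF3R, the G-CSF receptor, read 251.3 with eltrombopag and 564.4 untreated in one probe set and 70.7 with eltrombopag against 164.2 untreated in the other, 2.25-fold and 2.32-fold lower. CSF2RB, the beta chain shared by the receptors for interleukin-3, interleukin-5 and GM-CSF, read 176.7 with eltrombopag and 315.6 untreated, a log2 ratio of -0.84. EPOR, the erythropoietin receptor and a close relative of the thrombopoietin receptor, read 125.6 with eltrombopag and 198.4 untreated, a ratio of -0.66, but 0.00 in its second measured probe set, at 61.2 with eltrombopag and 61.1 untreated.

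Both chains of the interleukin-6 receptor, which acts mainly through STAT3, had lower signals too in their brightest probe sets. IL6R, the interleukin-6 receptor, read 301.9 with eltrombopag and 684.1 untreated, 2.27-fold lower, and 342.2 against 561.6 in its other measured probe set, 1.64-fold lower. IL6ST, the signalling chain gp130, had a log2 ratio of -0.53 in its brightest probe set, but the dim 204864_s_at read 62.6 with eltrombopag and 37.2 untreated, under the floor, a ratio of at least 0.14. The interferon gamma receptor chain IFNGR1 had the highest ratio of the list, 0.22 in its brightest probe set and 1.08 in a dimmer one. Of 11 ligand genes, 1 was measured, FLT3LG at 66.9 with eltrombopag and 59.8 untreated. Megakaryocyte genes, the products of the lineage that thrombopoietin drives, were measured in 0 of 9 cases.

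The remaining inhibitors and targets were divided. Of 18 measured feedback inhibitors, 9 had ratios above 0 and 9 below, none reached 2-fold, and the median was -0.01. Over all measured genes, 36.6% had ratios above 0 and 63.4% below, and the median was -0.12. CBLB, a ubiquitin ligase that limits receptor signalling, read 521.7 with eltrombopag and 343.5 untreated, a ratio of 0.60, and 0.83 in another probe set. PIAS3, which blocks DNA binding by STAT3, had a ratio of -0.45. SOCS3, the feedback inhibitor most tied to STAT3, read 72.2 with eltrombopag and 79.4 untreated, a ratio of -0.14. SOCS1 read 51.1 with eltrombopag, under the floor, and 77.0 untreated, and was at least 1.35-fold lower. PTPN11, the phosphatase SHP2, gave -0.43 in its brightest probe set and -0.09 in a dimmer one.

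Of 19 measured STAT3 and STAT5 targets other than the 4 above, 7 had ratios above 0 and 12 below. The shares over all measured genes were 36.6% above 0 and 63.4% below. FOS, a subunit of AP-1 that cytokines induce through both STAT and MAP kinase routes, read 575.4 with eltrombopag and 153.3 untreated, 3.75-fold higher, and EGR1, an early response gene, was higher in its 3 measured probe sets, with ratios from 0.65 to 0.91. CCND3, cyclin D3, read 380.9 with eltrombopag and 969.9 untreated, 2.55-fold lower. CDKN1A, the cell cycle inhibitor p21, read 128.4 with eltrombopag and 341.8 untreated, 2.66-fold lower. The survival genes BCL2L1 and MCL1 had ratios of -0.56 and -0.13 in their brightest probe sets, and BCL2, the gene that names their family, 0.10. The 5 measured MCL1 probe sets disagreed. With eltrombopag 200796_s_at read 48.2, under the floor, and 134.6 untreated, at least 2.37-fold lower, while 214057_at had a ratio of 0.38. None of the 21 measured adaptor, MAP kinase and PI3 kinase genes reached 2-fold. SH2B1, an adaptor that binds JAK2, had the lowest ratio of that list, -0.75 at 121.0 with eltrombopag and 202.9 untreated, with -0.81 in its other probe set. LYN, a Src family kinase, and AKT2 and AKT1, kinases of the survival pathway, had ratios of -0.42, -0.37 and -0.35. In a dimmer measured probe set LYN had a ratio of 0.13 and AKT2 one of 0.02.

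**Figure D3:**
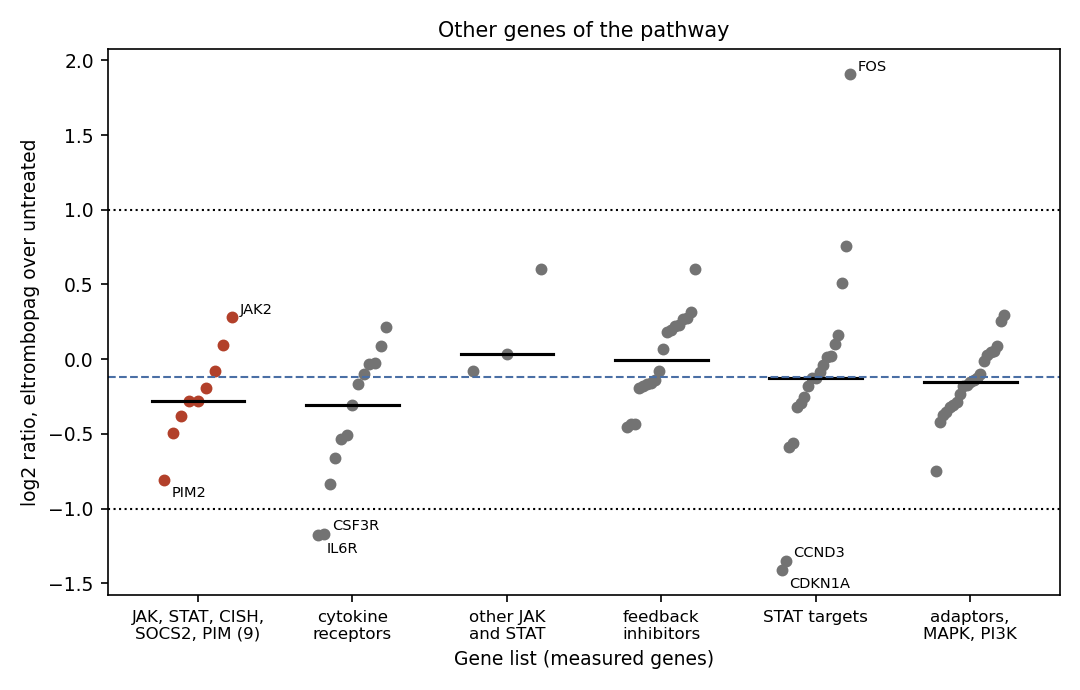
Log2 ratio of eltrombopag over untreated for the measured genes of each list (points, in rank order), with black bars at list medians, a dashed line at the median of all measured genes and dotted lines at 2-fold. The receptor list has its median at -0.31, IL6R and CSF3R lie below the lower limit, and FOS is the 1 point above the upper limit.

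The ratios of the 9 genes were recomputed under other scalings, floors and choices of probe set. JAK2 had the highest ratio of the 9 under every setting in which it was measured. PIM2 had the lowest under the 3 other scalings, but with the floor at the 50th percentile or none PIM1, at -0.88, lay below it. PIM2 stayed between -0.81 and -0.68, and JAK2 ranged from 0.28 to 0.67 wherever it was measured.

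**Figure D4:**
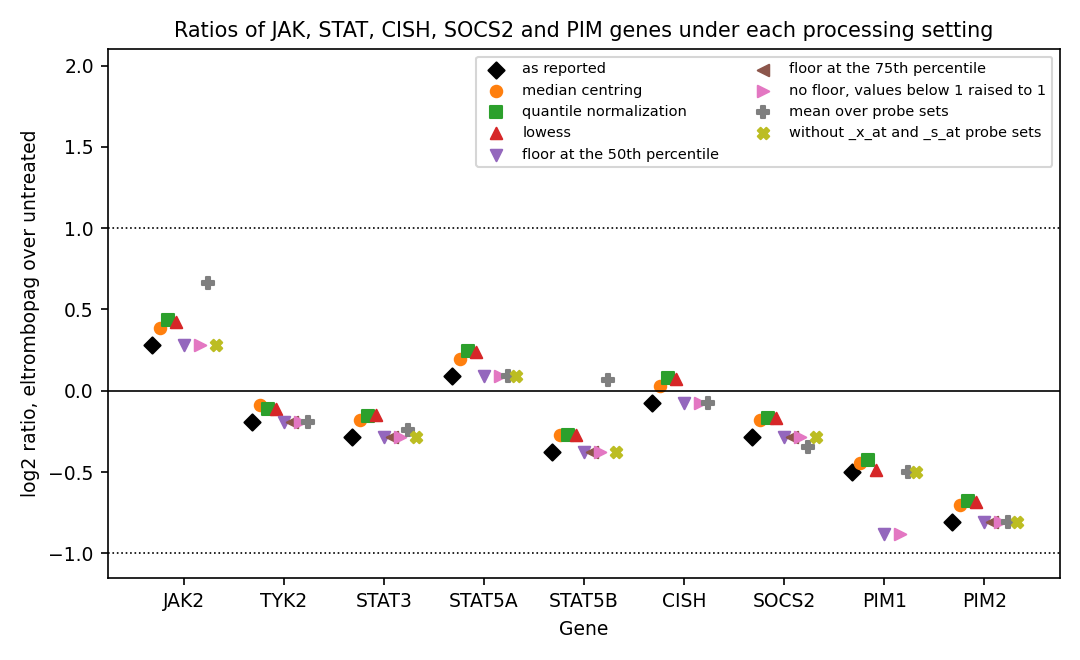
Log2 ratio of eltrombopag over untreated for each of the 9 genes, with 1 marker per processing setting, a solid line at 0 and dotted lines at 2-fold. All markers lie between the 2-fold limits, and STAT5B and CISH have markers on both sides of 0.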

How the data were processed

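RNA of 2 HL60 cultures, 1 given eltrombopag and 1 untreated, was hybridised to 1 expression array each. Per the labels' protocols, RNA was extracted with Trizol and about 5 µg was converted to biotinylated cRNA. The deposited values are linear signal intensities per probe set, made with MAS5 per the submitters' processing notes; the MAS5 version and scaling target were not given in the sources used here, and no detection calls were used. Precision is limited by the number of arrays, 1 per group.

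From these intensities, log2 ratios of eltrombopag over untreated were computed in Python 3.11.15 (pandas 2.3.3, statsmodels 0.14.6) after raising signals below the 60th percentile to it. The scripts that compute and count ratios were tested on simulated data, with changes set only in genes well above the floor. That checks the code, not the treatment or dim signals. By the platform annotation, 41091 probe sets carry 1 gene name (41037 matched RefSeq identifiers); the 1801 with several names and the 11721 without an entry stayed unnamed. All 9 genes and their probe sets are named. Of each other pathway list the genes past 2-fold and up to 4 with the largest ratios are named, and of marker lists up to 4 of the largest signal. IL6ST, IFNGR1, SOCS3, PIM3, BCL2L1, MCL1, BCL2, GHR, IL3 and LIF were chosen after their values were seen. So were all marker genes but JCHAIN, XBP1, MZB1, FKBP11, SRGN, MPO, MS4A3 and RNASE2. The genes and lists were chosen with earlier results of these data known. The alternatives were 3 scalings, 3 floors, 2 treatments of probe sets and a 1.5-fold threshold. Genes with no probe set of their own were not analysed here.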

Additional observations from a re-analysis of the deposited data

How the results depend on the processing

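With 1 array per group, the direction and size of each ratio rest on 2 hybridisations, and dim signals limit JAK2, STAT5A, CISH and PIM1. Under 8 alternatives that change ratios, none of the 9 genes passed 2-fold in either direction. Their median log2 ratio stayed between -0.28 and -0.15. The mean over probe sets gave 0.67 for JAK2 and turned STAT5B to 0.067. PIM1 had a log2 ratio of -0.88 with the floor at the 50th percentile or with none. At a floor set on the 75th percentile, 5 of the 9 genes were measured, with JAK2, STAT5A, CISH and PIM1 below it, and leaving out the suffixes _x_at and _s_at 7 were measured, with TYK2 and CISH left out. At 1.5-fold, 1 of the 9 genes, PIM2, was lower and 0 were higher. Of the other 75 pathway genes, 4 were higher and 8 lower at 1.5-fold, beside shares of 3.49% and 11.8% over all measured genes. Of the same lists, 7 were at least 2-fold lower with no floor, where GHR, IL3 and LIF were added on signals under the floor, and 2 were at least 2-fold higher without the suffixed probe sets, where IFNGR1 was added at 2.12-fold. IL6R fell short of 2-fold with the mean over probe sets, at -0.95. No paired analysis was possible because each group holds 1 sample. The plot of ratios by setting shows the 9 genes.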
